A study of Drosophila melanogaster with 6 samples.

Results

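The genes described here are 10 heat shock genes of Drosophila melanogaster, chosen by name: the small heat shock protein genes Hsp22, Hsp23, Hsp26, Hsp27, Hsp67Bc and l(2)efl, the Hsp70 relative Hsp68, the Hsp90 gene Hsp83, the transcription factor gene Hsf and the Hsp40 co-chaperone gene DnaJ-1. Members were the probe sets that the platform's annotation names for one of these genes. Of the 10 genes, 6 have probe sets of their own, 8 in all of 18769 tested. Hsp22 has 2 probe sets, both shared with its neighbour CG4456 (Hsp67Bb), so their signal cannot be assigned to one of the pair. Hsp23, Hsp67Bc and Hsp83 have no named probe set here, and these 3 genes were not analysed here.

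The data are 6 one-colour Affymetrix arrays of RNA from whole adult females, 3 of the mutant stock Calment1/4, which carries its mutation in the isogenic background CS10, and 3 of CanS, the wild-type stock Canton-S. Both stocks were cultured at 25 °C without a heat treatment named in the labels, their age is not given, and each array stands for a pool of 30 to 35 flash-frozen flies. Genotype and stock background change together, so a difference between the groups is a difference between 2 stocks. The comparison asks which transcripts differ in a mutant studied for longevity and resistance to oxidative stress. In RNA of whole flies, fewer cells of a type and less RNA per cell cannot be told apart.

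Heat shock proteins are chaperones that hold unfolding proteins in solution, refold them or pass them on for destruction. Small heat shock proteins form oligomers that trap unfolding proteins without using ATP, Hsp70-type proteins refold them in cycles of ATP hydrolysis that Hsp40 co-chaperones such as DnaJ-1 drive, and Hsf is the factor that binds the promoters of these genes and switches them on when proteins unfold. In flies several of the small genes are also active without stress: Hsp26 and Hsp27 are transcribed in the nurse cells of the ovary, and Hsp22, whose protein resides in mitochondria, is known for its rise in old flies.

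Across all probe sets 87 of 18769 passed an adjusted p of 0.05 in limma (0.464%), and arrays correlated at 0.991 to 0.998. The median difference over all probe sets was 0.00054 on the log2 scale. The yolk protein gene Yp1 averaged 13.98 (log2) on the Calment1/4 arrays and 14.03 on the CanS arrays, while 8 of 8 male reproductive markers had group means between 2.78 and 3.86, near the 10th percentile of the arrays (3.43 to 3.49). Calment1/4 replicate 1 and CanS replicate 3 stood apart from their groups on ovary markers. Around each gene's mean, the median of 10 of 11 listed female germline markers was -0.29 and -0.23 on these 2 arrays and between 0.08 and 0.26 on the other 4. The median of 7 yolk and eggshell genes was -0.35 and -0.40, against 0.19 to 0.25 on the other 4. The eggshell gene Cp18 of that list was highest on Calment1/4 replicate 1 (12.46) and lowest on CanS replicate 3 (11.46). It passed the threshold between the stocks (0.74, adjusted p = 0.0435 in limma).

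None of the 6 heat shock genes with probe sets of their own passed the threshold in limma, where 0.464% of all probe sets did. Their differences between Calment1/4 and CanS ran from -0.46 for Hsp68 to 0.13 for DnaJ-1 on the log2 scale, with a median of -0.014; 3 lay above 0 and 3 below. The groups did not overlap for 2 of the 6, Hsp68 and DnaJ-1, where they did not overlap for 12.6% of all probe sets. One of the 6, Hsp68, had an unadjusted p under 0.05, as 7.67% of all probe sets did. Both Hsp68 and the brighter shared probe set of Hsp22 read lower on every Calment1/4 array than on any CanS array, and neither was called.

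**Figure D1:**
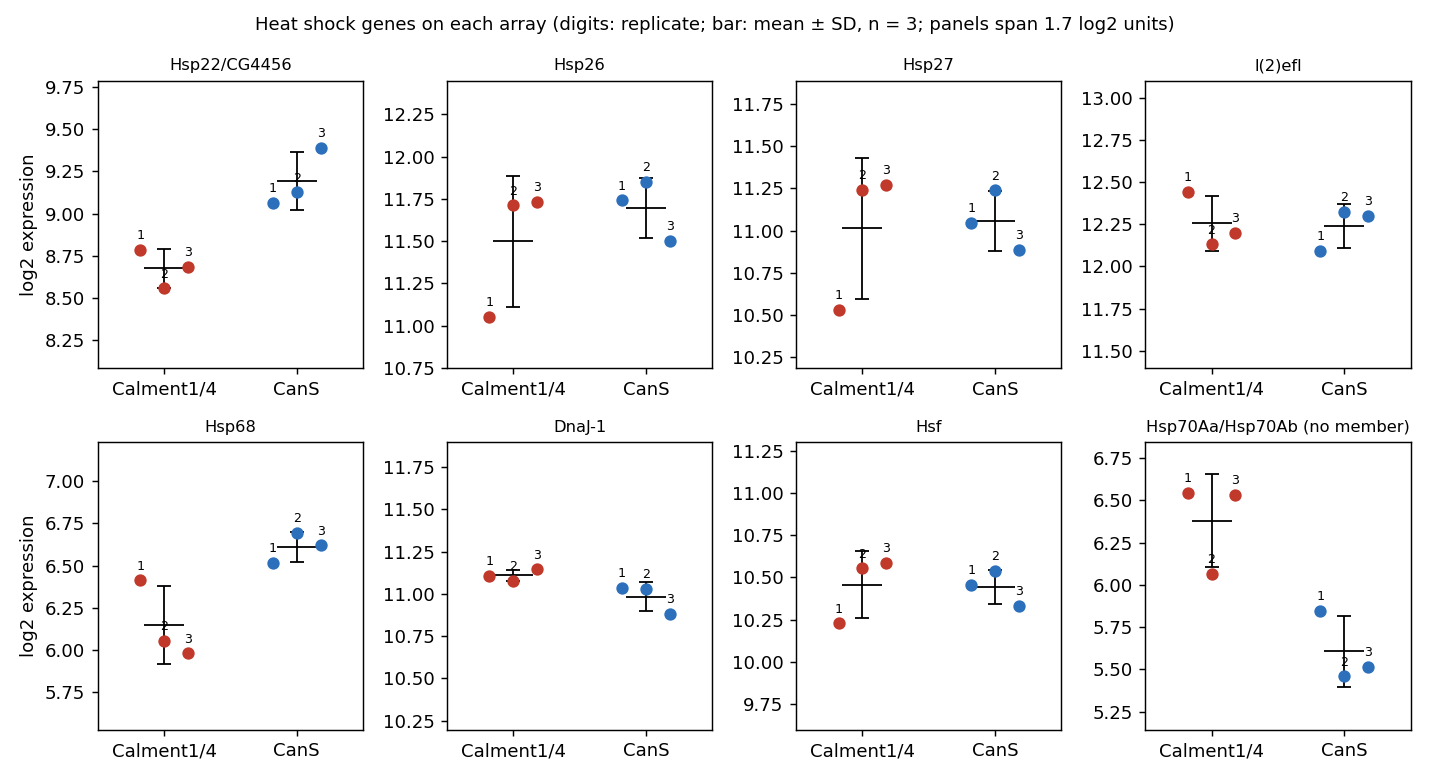
Log2 expression (vertical axis) on the 3 Calment1/4 arrays (red) and the 3 CanS arrays (blue). Shown are the 6 heat shock genes with probe sets of their own and the brighter probe set shared by Hsp22 and CG4456. The probe set shared by Hsp70Aa and Hsp70Ab is given for comparison. Digits give the replicate and bars the mean and SD (n = 3). The groups lie apart for Hsp22/CG4456, Hsp68, DnaJ-1 and Hsp70Aa/Hsp70Ab, and Calment1/4 replicate 1 lies far below its group for Hsp26 and Hsp27.

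Hsp68 encodes an inducible Hsp70-type chaperone and lies on chromosome arm 3R, apart from the Hsp70 copies. Its probe set 1638872_at read 6.41, 6.05 and 5.98 on Calment1/4 replicates 1, 2 and 3, and 6.52, 6.69 and 6.62 on the CanS replicates. Every Calment1/4 array lay below every CanS array, with Calment1/4 replicate 1 close to the lowest CanS array. The means were 6.15 ± 0.23 and 6.61 ± 0.09 (SD, n = 3 each), a difference of -0.46 (SE 0.12, 95% interval -0.74 to -0.18), which is 1.38-fold lower in Calment1/4 and did not pass (adjusted p = 0.250 in limma). The result turned on 1 array. Without Calment1/4 replicate 1 the difference was -0.59 (adjusted p = 0.0220), and without that array and CanS replicate 3 it was -0.59 (adjusted p = 0.0490). Weighting the arrays by how closely each followed its group, which gave Calment1/4 replicate 1 the lowest weight of the 6 (0.369), also brought Hsp68 past the threshold (-0.56, adjusted p = 0.0242). Leaving out any other single array gave differences from -0.51 to -0.38 and adjusted p from 0.337 to 0.797. Because the groups did not overlap, no left-out array could turn the sign.

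Hsp22 encodes the mitochondrial small heat shock protein. The brighter of its 2 probe sets, 1629061_s_at, also lists CG4456 and read 8.79, 8.56 and 8.69 in Calment1/4 against 9.07, 9.13 and 9.39 in CanS. All 3 mutant arrays lay below all 3 wild-type arrays. The difference was -0.52 (SE 0.11, 95% interval -0.77 to -0.27), a 1.43-fold lower mean in Calment1/4, with an adjusted p of 0.121 in limma. The other shared probe set, 1630487_s_at, read 6.08, 5.97 and 5.62 against 5.85, 6.16 and 6.15. There the groups overlapped and the difference was -0.17 (SE 0.14, adjusted p = 0.911 in limma), so the 2 probe sets had the same sign and different sizes. The brighter one ran from -0.58 to -0.42 with each array left out in turn, where groups that did not overlap fixed its sign. It passed with array weights (-0.57, adjusted p = 0.0249).

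The medians of the gut and haemocyte marker lists were lower on every Calment1/4 array than on any CanS array, like Hsp68 and the brighter Hsp22 probe set. The median of 7 of 8 listed gut markers around each gene's mean ran from -0.33 to -0.08 on the Calment1/4 arrays and from 0.23 to 0.37 on the CanS arrays, and that of 4 haemocyte markers from -0.45 to -0.09 and from 0.10 to 0.39. Within the gut list the differences ran from -1.47 for Mal-A1 to -0.010 for betaTry. The 4 measured muscle markers also had lower Calment1/4 means (differences from -0.55 to -0.16), with overlapping groups. Those of the 2 measured neuron markers were higher (0.13 each). The marker lists were chosen with earlier results of these data known. The part of these tissues in the values of Hsp68 and the Hsp22 probe set was not tested.

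Hsp26 and Hsp27, both in the small heat shock cluster, varied more between arrays of one stock than between stocks. Hsp26 (1635044_at) read 11.05, 11.71 and 11.73 in Calment1/4 and 11.74, 11.85 and 11.50 in CanS. Hsp27 (1628117_at) read 10.53, 11.24 and 11.27 in Calment1/4 and 11.05, 11.24 and 10.89 in CanS. In both genes Calment1/4 replicate 1 was the lowest of the 6 arrays and CanS replicate 3 the next lowest. Calment1/4 replicate 1 differed from the mean of its group mates by -0.67 for Hsp26 and by -0.72 for Hsp27, and CanS replicate 3 from its own by -0.29 and -0.26. The SD within groups was 0.30 for Hsp26 and 0.32 for Hsp27, larger than that of 96.2% and 96.8% of all probe sets, and the median over all probe sets was 0.12.

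Between the stocks Hsp26 differed by -0.20 (SE 0.19, 95% interval -0.62 to 0.23, adjusted p = 0.927 in limma) and Hsp27 by -0.043 (SE 0.20, 95% interval -0.49 to 0.40, adjusted p = 0.995 in limma). Both signs turned when Calment1/4 replicate 1 was left out, to 0.025 (adjusted p = 0.939) and 0.20 (adjusted p = 0.492). For Hsp27 leaving out CanS replicate 2 also turned the sign (0.048, adjusted p = 0.993), as did leaving out Calment1/4 replicate 1 and CanS replicate 3 together (0.11, adjusted p = 0.716). The 2 arrays with low Hsp26 and Hsp27 were those with low medians of the female germline and the yolk and eggshell markers. The part of ovary content in these values was not tested.

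**Figure D2:**
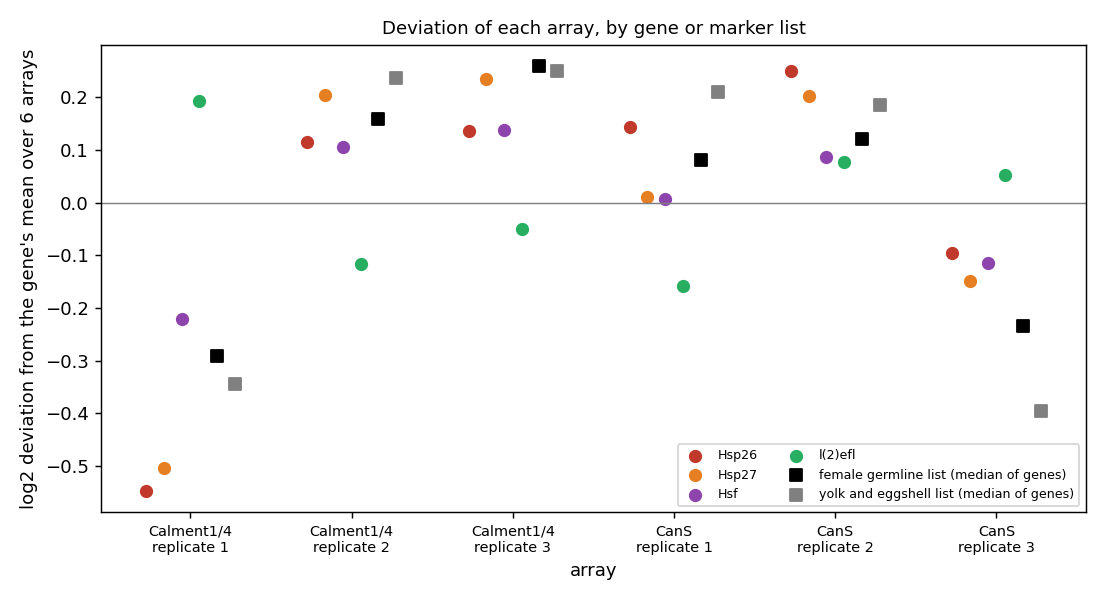
Deviation of each array (horizontal axis) from the gene's mean over the 6 arrays, in log2 units, for Hsp26, Hsp27, Hsf and l(2)efl (circles) and for the medians of the female germline and the yolk and eggshell markers (squares). Hsp26, Hsp27, Hsf and both marker lists lie below 0 on Calment1/4 replicate 1 and CanS replicate 3, where l(2)efl lies above 0 at 0.19 and 0.053.

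The small heat shock gene l(2)efl, a relative of the alpha-crystallins on arm 2R, has 3 probe sets. The brightest, 1627242_at, read 12.44, 12.13 and 12.20 in Calment1/4 and 12.09, 12.33 and 12.30 in CanS. The groups overlapped and the difference was 0.018 (SE 0.11, 95% interval -0.23 to 0.27, adjusted p = 0.995 in limma). Without Calment1/4 replicate 1 it was -0.074 and without CanS replicate 1 it was -0.057. The probe set 1626416_a_at differed by -0.026, also with overlapping groups. The dimmest, 1635952_at, read 4.92, 4.87 and 4.72 against 4.97, 5.12 and 5.09, a difference of -0.22 (SE 0.09, adjusted p = 0.568 in limma) between groups that did not overlap. The probe sets therefore disagreed in size, and the mean of all 3 gave -0.077. Unlike Hsp26 and Hsp27, all 3 l(2)efl probe sets were highest, within Calment1/4, on replicate 1.

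The co-chaperone and the regulator, which act on the other members or on their genes, showed the smallest spread and the smallest difference, respectively. DnaJ-1 (1637059_s_at) read 11.11, 11.07 and 11.14 in Calment1/4 and 11.04, 11.03 and 10.88 in CanS. Every Calment1/4 array lay above every CanS array, by a narrow margin, and the SD within groups was 0.066, with 12.9% of all probe sets having a smaller one. The difference of 0.13 (SE 0.08, 95% interval -0.06 to 0.31) did not pass (adjusted p = 0.854 in limma). It ran from 0.076 to 0.15 over the 14 alternatives. As the groups did not overlap, leaving out or weighting arrays could not turn its sign.

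Hsf (1626844_at) read 10.23, 10.55 and 10.59 in Calment1/4 and 10.46, 10.54 and 10.33 in CanS. The groups overlapped and the difference was 0.015 (SE 0.11, 95% interval -0.25 to 0.28, adjusted p = 0.997 in limma), with the sign turned without Calment1/4 replicate 2 (-0.034), Calment1/4 replicate 3 (-0.051) or CanS replicate 3 (-0.040). Calment1/4 replicate 1 was again the lowest array and CanS replicate 3 the next lowest. These are transcript levels, while Hsf is known to be switched on by a change of the protein from monomer to trimer, which arrays do not measure.

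**Figure D3:**
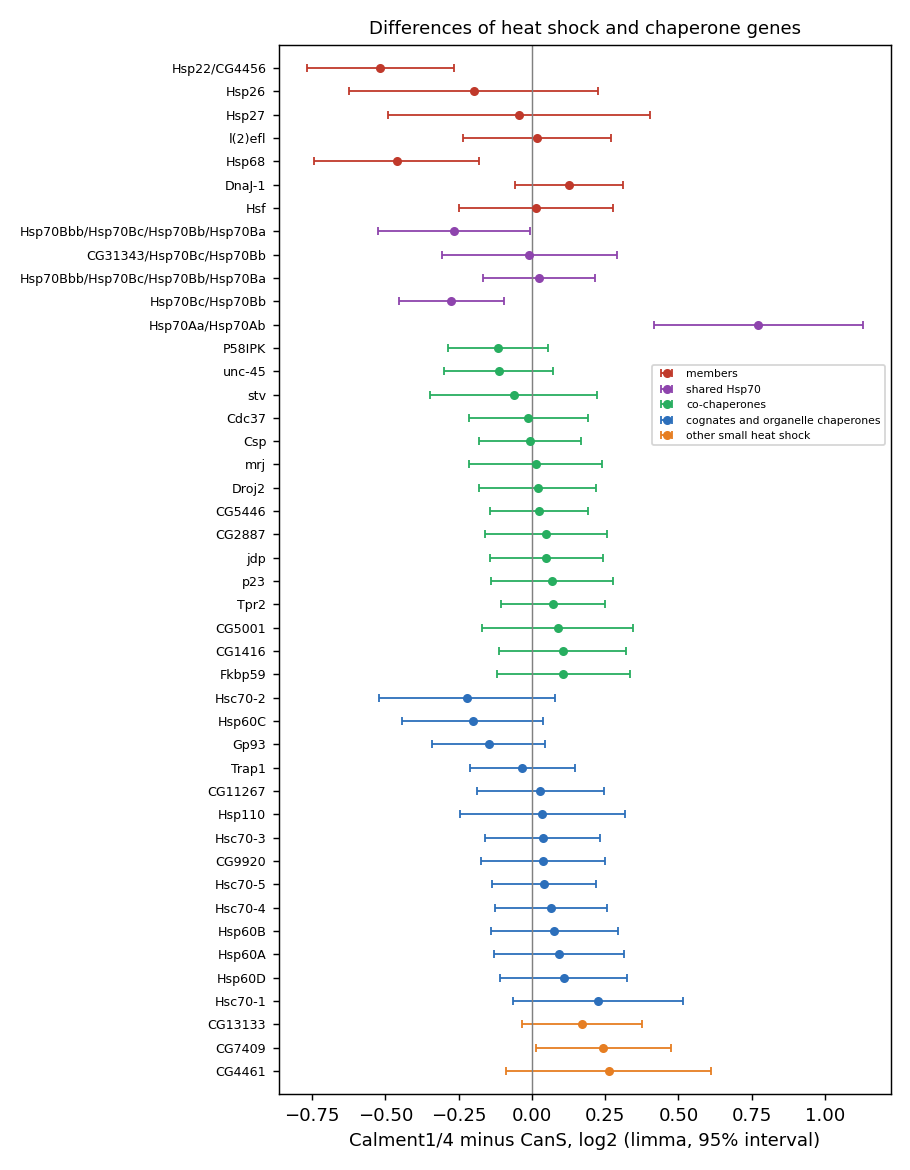
Difference between Calment1/4 and CanS on the log2 scale (horizontal axis) with its 95% interval from limma. Shown are the 6 heat shock genes with probe sets of their own and the brighter probe set shared by Hsp22 and CG4456. The shared Hsp70 probe sets and 32 other chaperone genes follow. Most points lie within 0.25 of 0, and the probe set of Hsp70Aa and Hsp70Ab (0.77) and those of Hsp22/CG4456 (-0.52) and Hsp68 (-0.46) lie farthest out.

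The classical Hsp70 genes, the most strongly heat-induced genes of the fly, have near-identical copies, and the platform gives all 6 listed copies shared probe sets only. The probe set of Hsp70Aa and Hsp70Ab read 6.54, 6.06 and 6.53 in Calment1/4 and 5.85, 5.46 and 5.52 in CanS. All 3 Calment1/4 arrays lay above all 3 CanS arrays, opposite to Hsp68 and the brighter probe set shared by Hsp22 and CG4456. The means were 6.38 ± 0.27 and 5.61 ± 0.21 (SD, n = 3 each), a difference of 0.77 (SE 0.16, 95% interval 0.42 to 1.13) or 1.71-fold, which did not pass (adjusted p = 0.104 in limma). With each array left out in turn it ran from 0.69 to 0.93 (adjusted p from 0.0782 to 0.365 in limma). Its sign could not turn there, as the groups did not overlap.

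No probe set of the B copies showed a rise of that size. The probe set listing Hsp70Bb and Hsp70Bc read 3.99, 3.84 and 3.88 in Calment1/4 and 4.17, 4.21 and 4.17 in CanS. It was dim and differed by -0.27 (SE 0.08, adjusted p = 0.308 in limma) between groups that did not overlap. Of the 2 probe sets listing Hsp70Ba, Hsp70Bb, Hsp70Bbb and Hsp70Bc, 1626821_s_at differed by -0.26 (adjusted p = 0.641 in limma) and 1629827_s_at, the dimmer, by 0.024. The latter averaged 2.96 in Calment1/4 and 2.93 in CanS, below the 10th percentile of the arrays (3.43 to 3.49). Another, which also lists CG31343 and averaged 12.09 and 12.10, differed by -0.0093. Because copies share sequence, none of these values can be given to a single gene, and whether the A and B probe sets differ from each other was not tested.

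The remaining chaperones gave no call. Of 40 other listed genes outside the Hsp70 copies, 32 had probe sets of their own, and 0 passed the adjusted threshold in limma (1 had an unadjusted p under 0.05), beside 0.464% of all probe sets. Their median difference was 0.040, with 23 above 0 and 9 below. All 3 small heat shock relatives with probe sets of their own lay above 0: CG7409 at 0.24 (adjusted p = 0.608 in limma), CG4461 at 0.26 and CG13133 at 0.17. A further relative, CG4456, is read only by the probe sets shared with Hsp22, which lay below 0 and cannot be given to either gene. CG7409 read 11.59, 11.40 and 11.27 in Calment1/4 and 11.15, 11.12 and 11.26 in CanS, so its groups were separated by a narrow margin.

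Among 14 constitutive and organelle chaperones the differences ran from -0.22 to 0.22 with a median of 0.038. The 2 of smallest p were Hsp60C, a relative of the mitochondrial chaperonin, at -0.20 (adjusted p = 0.756 in limma), and Hsc70-1, an Hsp70 cognate, at 0.22 (adjusted p = 0.803 in limma). Hsp60C was dim, with means of 3.77 in Calment1/4 and 3.97 in CanS. So was Hsc70-2, the lowest at -0.22 (3.73 and 3.95). Both lay below the 33rd percentile of the arrays (4.45 to 4.54). Hsc70-4, the main cytosolic cognate, stood at 0.066, Hsc70-3, the cognate of the endoplasmic reticulum, at 0.037, and Hsp60A, the mitochondrial chaperonin, at 0.092. Of 20 co-chaperones 15 were measured, between -0.12 and 0.11. P58IPK, a co-chaperone of the endoplasmic reticulum, was at -0.12 (adjusted p = 0.856 in limma) and unc-45, a myosin chaperone, at -0.11 (adjusted p = 0.889 in limma). Of genes whose proteins work with Hsp90, p23 stood at 0.070 and Cdc37 at -0.012.

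The split between Calment1/4 replicate 1 and CanS replicate 3 on one side and their group mates on the other ran through these genes as well. Of the 6 members with probe sets of their own, 3 (50%) were lowest of their group on both arrays, Hsp26, Hsp27 and Hsf. None was highest on both. The brighter shared probe set of Hsp22 was highest of its group on both, at 8.79 and 9.39. Over all probe sets 21.8% were lowest of their group on both arrays and 21.4% highest on both. Of the 32 others, 11 (34.4%) were lowest on both, among them Hsp110 (Hsc70Cb), Hsp60A, Hsc70-3, Hsc70-4, Cdc37 and p23, and 7 (21.9%) were highest on both: CG4461, CG7409, CG13133, Hsc70-1, stv, CG2887 and CG5001. The genes named for these positions were picked after their values were seen.

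Of the 10 listed genes 5 lie on arm 3L in the small heat shock cluster, in the RefSeq order Hsp67Bc, CG4456, Hsp22, CG4461, Hsp26, Hsp67Ba, Hsp23 and Hsp27. Within it the brighter shared Hsp22 probe set stood at -0.52, CG4461 at 0.26, Hsp26 at -0.20 and Hsp27 at -0.043. CG4461 thus had the opposite sign to the others, but none of these differences passed the threshold (adjusted p from 0.121 to 0.995 in limma). Those of Hsp26 and Hsp27 turned sign with arrays left out. The genes just outside, Fdx1 and CG4452 on one side and CG4080 on the other, stood at 0.091, 0.078 and 0.064 (adjusted p from 0.908 to 0.978 in limma).

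The genes with a pattern most like that of Hsp68, the member of smallest p, were alpha-Est5, CtsK2, CG12057, CG10051 and CG7724. Their Pearson r with Hsp68 over the 6 arrays was 0.998, 0.997, 0.995, 0.983 and 0.979, given as a measure of likeness only. Of 2551 candidate probe sets with an SD of at least 0.2, 126 had an r over 0.9, so such likeness is common with 6 arrays. The 5 genes differed between the stocks by -0.32, -0.44, -0.83, -0.45 and -0.32. They were chosen by likeness to Hsp68 on these same arrays. The shared sign, and Calment1/4 replicate 1 as the highest of its group, therefore follow from that choice. None of the 5 passed the threshold (adjusted p from 0.155 to 0.506 in limma).

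**Figure D4:**
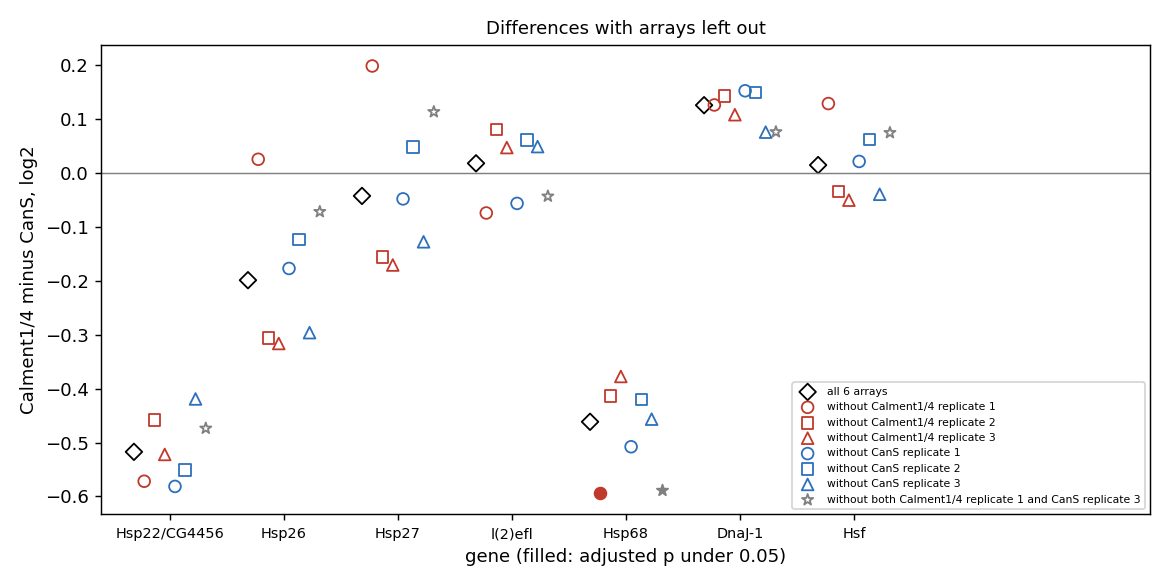
Difference between Calment1/4 and CanS on the log2 scale (vertical axis), with all 6 arrays (diamond) and with arrays left out (other symbols). Shown are the heat shock genes with probe sets of their own and the brighter probe set shared by Hsp22 and CG4456. Filled symbols passed an adjusted p of 0.05. Hsp68 and Hsp22/CG4456 stay below 0 and DnaJ-1 above 0 throughout, while Hsp26, Hsp27, l(2)efl and Hsf lie on both sides of 0. The groups do not overlap for Hsp68, Hsp22/CG4456 and DnaJ-1, so leaving out arrays cannot turn their signs.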

How the data were processed

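The authors deposited 1 log2 value for each probe set on each array. Per the submitters' processing notes, RMA, MAS5 and affy 1.36.0 were used, with roles not stated. The quartiles are nearly equal between arrays, so a shift common to most transcripts may not show. Detection calls were not used here. Of 18952 probe sets, 183 AFFX controls were dropped.

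Of the tested probe sets 13647 have exactly 1 gene symbol, 402 several and 4720 none; 13544 of the first matched RefSeq (Release 6 plus ISO1 MT) by gene identifier, which gave current symbols, chromosome arms and gene order. A gene with several probe sets is represented by the one with the highest mean. The genotype difference was tested two-sided with lmFit and eBayes of limma 3.58.1 (R 4.3.3), without other terms, with Benjamini-Hochberg adjustment over all 18769 probe sets and a threshold of 0.05. The number of arrays limits the precision. The titles call the arrays biological replicates.

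All 10 members are named, with the genes past the threshold from each of 4 other chaperone lists or else the 2 of smallest p, and the 5 genes most like the member of smallest p. Members and lists were chosen with earlier results of these data known. The alternatives were repeated quantile normalization, median centring, a filter on the dimmest 33.3%, trend and robust eBayes, a block for the replicate number, array weights, a threshold of 0.01, averaging the probe sets of each gene, and leaving out arrays. Those for the shared Hsp70 probe sets were added after seeing the data. In 20 simulations over 18769 probe sets with 200 changed, limma found 44.5% of log2 changes of 0.5 and 87.7% of those of 1, with 3.89% false calls, under noise independent between probe sets. Sequences and promoter motifs were not used here. Figures were drawn with matplotlib 3.10.9.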

Additional observations from a re-analysis of the deposited data

How the results depend on the processing

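The number of probe sets called, 87 with all 6 arrays, ran from 38 to 281 when single arrays were left out. Leaving out Calment1/4 replicate 1 gave 281, replicate 2 of that group 38, its replicate 3 45, and CanS replicate 3 54. It was 228 without both Calment1/4 replicate 1 and CanS replicate 3, 337 with array weights and 38 at an adjusted p of 0.01. With the replicate number as a block it was 30. Deviations of same-numbered arrays correlated at -0.29, 0.20 and -0.43, and Calment1/4 replicate 1 deviated with CanS replicate 3 (0.54), so the numbers are not taken as pairs. The block changed no call among the heat shock genes. Among the 6 heat shock genes with probe sets of their own, the count called was 0 to 1 with single arrays left out, 1 with array weights and 1 without both arrays, each time Hsp68. The brighter shared probe set of Hsp22, not in that count, also passed with array weights (-0.57, adjusted p = 0.0249). Other chaperones had 0 calls in every alternative run.

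Hsp68, Hsp22, DnaJ-1 and both Hsp70 probe sets kept their sign in each alternative run. On these probe sets, for Hsp22 the brighter one, the groups did not overlap. Leaving out or weighting arrays therefore could not turn their signs, and the kept signs add nothing to that separation. The Hsp70Bb and Hsp70Bc probe set was removed by the filter on dim probe sets and has no value there. Signs turned for Hsp26 with single arrays left out (-0.32 to 0.025), and for Hsp27 with single arrays left out (-0.17 to 0.20), with array weights (0.11) and without both arrays (0.11). For l(2)efl they turned with single arrays left out (-0.074 to 0.081), with array weights (-0.070), without both arrays (-0.043) and with the mean of its probe sets (-0.077). For Hsf they turned with single arrays left out (-0.051 to 0.13). The lowest adjusted p of these 4 genes in any alternative was 0.492 (Hsp27), and the cause was not tested. With 3 arrays a group, changes near 0.5 on the log2 scale were recovered in 44.5% of simulated cases.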
